A study of Danio rerio with 6 samples.

Results

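The genes described here encode the ligands, receptors and cytoplasmic partners of axon guidance. They were chosen by name, as the probe sets whose gene symbol begins with *sema*, *plxn*, *nrp1*, *nrp2*, *epha*, *ephb*, *efn*, *robo*, *slit*, *ntn*, *dcc*, *unc5*, *dpysl*, *crmp*, *gap43*, *l1cam* or *stmn*, which gave 58 of the 15502 probe sets tested, or 50 of 8793 named genes. The rule used gene names and no measured value, although earlier results of these data were known when it was set. Retinal cells of adult zebrafish were sorted by flow cytometry into a GFP-positive population and a GFP-minus population, with 3 biological replicates of each and 1 Affymetrix zebrafish array per replicate. All fish carried the transgene Tg(3.2TalphaCP:EGFP), in which a promoter fragment of the cone transducin α gene drives EGFP, and none was treated. Retinas were pooled, freed of pigment epithelium and lens and dissociated with trypsin before the sort. The labels call both populations cone cells, but the GFP-minus cells are what the sort left without EGFP signal and can hold any other retinal or blood cell. In such bulk samples, fewer cells of a type and less RNA per cell cannot be told apart.

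Guidance molecules steer growing axons by attraction and repulsion. Semaphorins act through plexins, often with neuropilins as co-receptors; ephrins act through Eph receptor tyrosine kinases, Slits through Robo receptors, and netrins through Dcc and Unc5 receptors. Inside the growth cone, collapsin response mediator proteins (the *dpysl* genes), stathmins and Gap43 act on microtubules and the membrane skeleton. In the eye these systems lay out the path of ganglion cell axons to the tectum and the layers of the inner retina, and several of them also act in blood vessels and immune cells. The gene *unc50* is caught by the prefix of *unc5* but encodes a Golgi membrane protein unrelated to netrin receptors. No probe set carried a *dcc*, *crmp*, *slitrk* or true *unc5* symbol.

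The values are log2 expression levels that the authors made with GCRMA, a method that subtracts background by probe sequence, so that transcripts without signal collect near a lowest value of 2.17. The array medians lay between 4.58 and 4.61 in GFP-positive and between 4.78 and 4.86 in GFP-minus samples. Arrays correlated at 0.977 to 0.992 within a population and at 0.920 to 0.948 across populations. Cone markers followed the sort, with 12 of 13 measured genes called higher in GFP-positive cells and none lower. Their summed level on the linear scale was 98936 to 127792 in GFP-positive and 4792 to 11314 in GFP-minus arrays, the highest GFP-minus value being that of replicate 3. Of 7 rod markers, 1 (*gnb1b*) was called higher, with sums of 77142 to 100559 in GFP-positive and 28193 to 57497 in GFP-minus arrays. The log2 differences of the 7 ran from 0.91 to 2.14, with a median of 1.68. Of 12 genes listed for Müller glia, *rlbp1a*, *gfap* and *vim* were called higher, with log2 differences of 1.31, 1.01 and 1.12. The gene *slc1a3a* was called lower (-4.28). The median difference of the 12 was -0.06. Their sums overlapped, at 22939 to 34303 in GFP-positive and 19438 to 30688 in GFP-minus arrays. Of 5 pigment epithelium markers none was called, with sums of 137 to 407 in GFP-positive and 98.3 to 179 in GFP-minus arrays. Opposite to the cone markers, 8 of 10 leukocyte genes and 6 of 6 erythrocyte genes were called lower. Summed leukocyte levels were 2596 to 5634 in GFP-positive and 42290 to 55164 in GFP-minus arrays. A call means an adjusted p under 0.05 in limma with Benjamini-Hochberg adjustment over all 15502 probe sets. The labels call the replicates biological without naming the fish behind each, so the p-values measure the spread between these samples.

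Most guidance genes gave little or no signal in either population. Of the 58 probe sets, 34 lay below the array median on all 6 arrays (58.6%, against 43.4% of all probe sets). With 1 probe set a gene, 27 of the 50 genes (54%) did. Flat ones, with a range under 0.05 over the arrays, numbered 13 (22.4%, against 15.4% of all). Probe sets above the array median on at least 3 arrays numbered 21 (36.2%, against 51.7% of all). From the values as deposited, 2 probe sets were called higher and another 2 lower in GFP-positive cells, and 54 were not called. The 2 higher ones are 3.45% of the 58, where 2.99% of all probe sets were called higher, and the 2 lower ones are 3.45%, where 4.69% of all were called lower. The median log2 difference was 0.00 over the 58 and 0.01 over all probe sets. The arrays of the populations did not overlap for 7 of the 58 (12.1%), against 26.9% of all probe sets. GFP-positive arrays were the higher ones for 3 of the 58, against 2155 of all 15502 probe sets (13.9%). They were the lower ones for the other 4 of the 58, against 2017 of all 15502. At an unadjusted limma p under 0.05, 2 of the 58 were higher and 4 lower, where 10.7% and 10.4% of all probe sets were. The calls fell on a semaphorin, on a pair of plexins that went opposite ways, and on a collapsin response mediator gene.

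**Figure D1:**
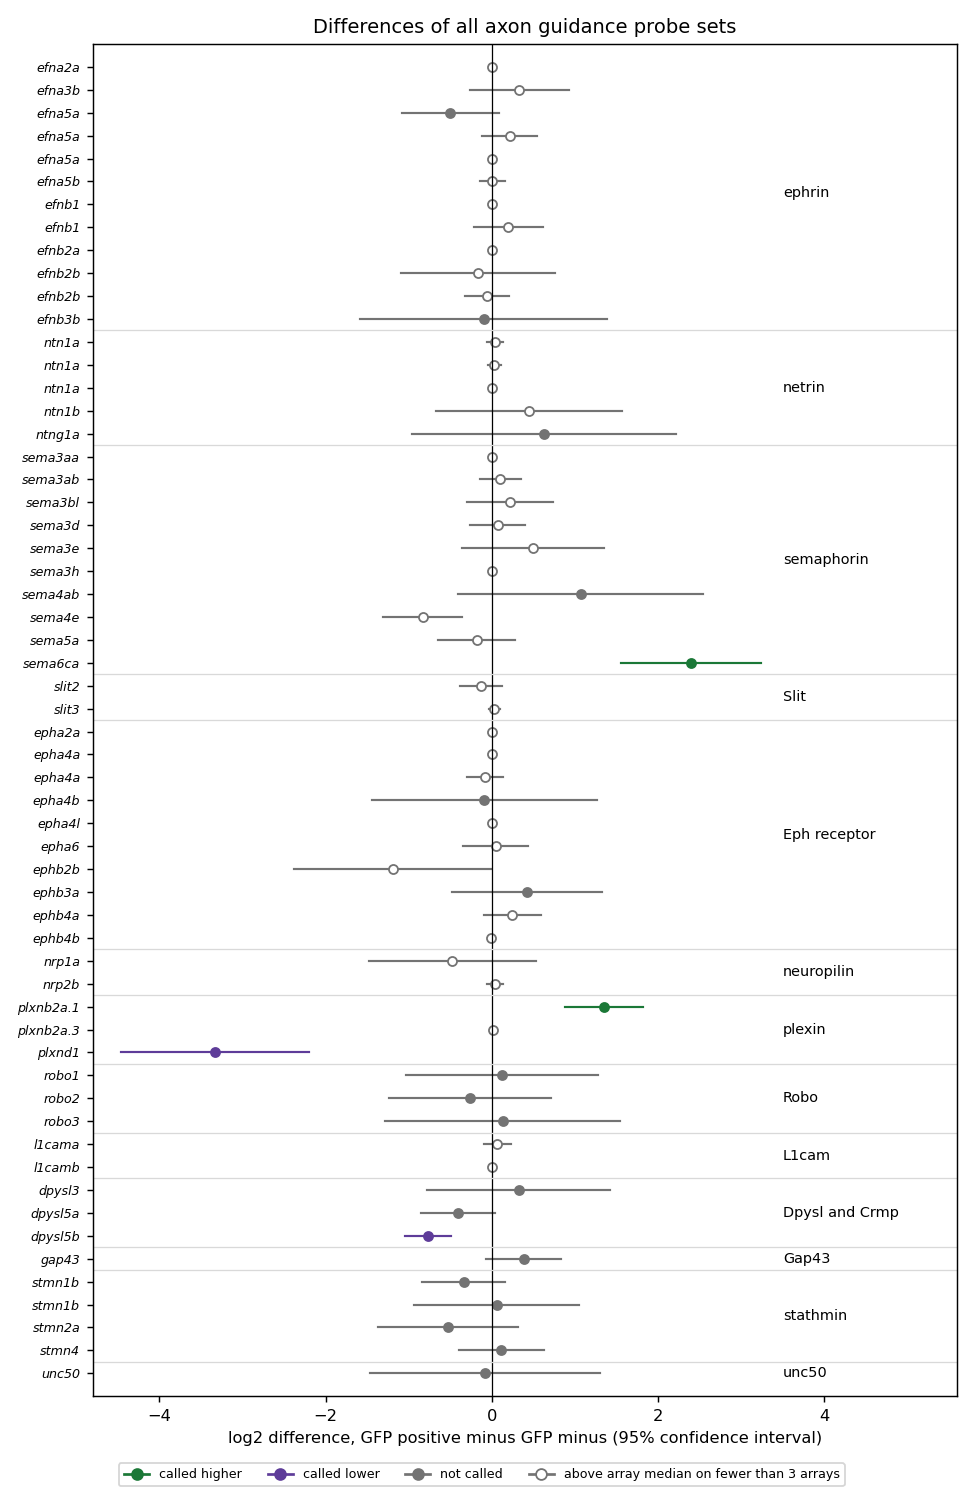
Log2 difference, GFP positive minus GFP minus, of each of the 58 axon guidance probe sets with its 95% confidence interval from limma, grouped by family. Green marks called higher, purple called lower, grey not called, and open circles mark probe sets above the array median on fewer than 3 arrays; *sema6ca* (2.40) and *plxnd1* (-3.33) stand at the 2 ends.

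Semaphorins are secreted or membrane-bound ligands, and 1 of the 10 measured was called. The transmembrane class 6 semaphorin gene *sema6ca*, of a class that binds class A plexins, had log2 levels of 6.48, 6.34 and 6.83 in GFP-positive arrays, against 4.51, 3.55 and 4.40 in GFP-minus arrays. All GFP-positive arrays were high and lay above their array medians, while all GFP-minus arrays lay below theirs. The log2 difference was 2.40 with a standard error of 0.32 (limma adjusted p = 0.0235), and its 95% confidence interval ran between 1.56 and 3.24. GFP-positive cells were thus 5.27-fold higher, by a fold that depends on the background step. Leaving out GFP-minus replicate 1 or 2 kept the call (limma adjusted p = 0.0458 and 0.0352). It was lost without GFP-minus replicate 3 (0.0686) and without GFP-positive replicate 1, 2 or 3 (0.0746, 0.0868 and 0.0990), although the difference stayed between 2.10 and 2.58. Beside *sema6ca*, 12 of 13 cone, 1 of 7 rod and 3 of 12 Müller glia markers were called higher. The rod markers, mostly uncalled, had a median difference of 1.68. Of the Müller glia markers 1 was called lower, and their median difference was -0.06. The part of these cell types in the result was not tested.

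The class 4 semaphorins pointed in different directions. The level of *sema4ab* was 4.82, 6.08 and 6.29 in GFP-positive arrays, against 3.98, 4.74 and 5.25 in GFP-minus arrays, so that the populations overlapped. Its log2 difference of 1.07 was not called (95% confidence interval -0.40 to 2.54, limma adjusted p = 0.371). The gene *sema4e* lay at 2.69, 2.64 and 2.64 in GFP-positive arrays and at 3.87, 3.29 and 3.32 in GFP-minus arrays. These groups did not overlap, but all values were below the array medians and the difference of -0.83 missed the threshold (limma adjusted p = 0.0727). Without GFP-minus replicate 1, its highest array, the difference of *sema4e* was -0.65 and passed (limma adjusted p = 0.00652). Leaving out any other single array gave no call of *sema4e*. The secreted class 3 semaphorins, which bind neuropilins, were near background throughout. The genes *sema3aa* and *sema3h* stood at 2.17 on every array, and *sema3ab*, *sema3bl* and *sema3d* did not exceed 3.01 on any array. The gene *sema3e*, whose product binds plexin D1 in mice and zebrafish, was at 3.42, 2.53 and 2.31 in GFP-positive and at 2.28, 2.24 and 2.26 in GFP-minus arrays. Its groups were separate, but 1 GFP-positive array carried most of the difference (0.50, limma adjusted p = 0.482). The gene *sema5a* was at 2.84 in GFP-minus replicate 2 and at 2.29 on all other arrays.

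Ephrins are membrane-anchored ligands, those of class A by a lipid anchor and those of class B by a transmembrane segment. None of the 12 ephrin probe sets, for 8 genes, was called, and none was at an unadjusted p under 0.05 in limma. The gene *efna5a*, a ligand of the gradients that order the retinotectal map, had the only class A probe set clear of background. That probe set had log2 levels of 5.87, 5.66 and 5.28 in GFP-positive arrays and 6.37, 5.83 and 6.11 in GFP-minus arrays, with overlap. Its difference was -0.50 (95% confidence interval -1.08 to 0.08, limma adjusted p = 0.301). The other *efna5a* probe sets disagreed with it in level, 1 lying between 2.51 and 3.03 and the other at 2.17 on every array. Among class B ephrins, *efnb3b* lay at 5.58, 5.32 and 5.31 in GFP-positive arrays, against 6.67, 4.81 and 5.03 in GFP-minus arrays. Its GFP-minus arrays therefore lay on either side of the GFP-positive ones, and the difference was -0.10 (standard error 0.56). Both *efnb2b* probe sets stayed between 3.99 and 5.02, while *efna2a*, *efna5b* and *efnb2a* did not exceed 2.33 and *efna3b* and *efnb1* did not exceed 3.79.

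Slits, the secreted ligands of Robo receptors, gave no usable signal. The difference of *slit2* was -0.13, with every array far below its median, and the levels of *slit3* lay between 2.73 and 2.82 on all arrays. Netrin-1, a secreted laminin-like attractant, is encoded by *ntn1a* and *ntn1b*. None of the 3 *ntn1a* probe sets exceeded 2.31, and *ntn1b* was at 3.93 in GFP-positive replicate 1 and at 2.58 on all other arrays. Netrin-G1, encoded by *ntng1a*, is anchored in the membrane by a lipid and does not act through Dcc. Its levels were well clear of background, at 8.95, 7.77 and 7.33 in GFP-positive, against 8.13, 7.33 and 6.71 in GFP-minus arrays. Replicate 1 was the highest array of each population, the populations overlapped, and the log2 difference of 0.62 had a confidence interval of -0.96 to 2.21 (limma adjusted p = 0.612).

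**Figure D2:**
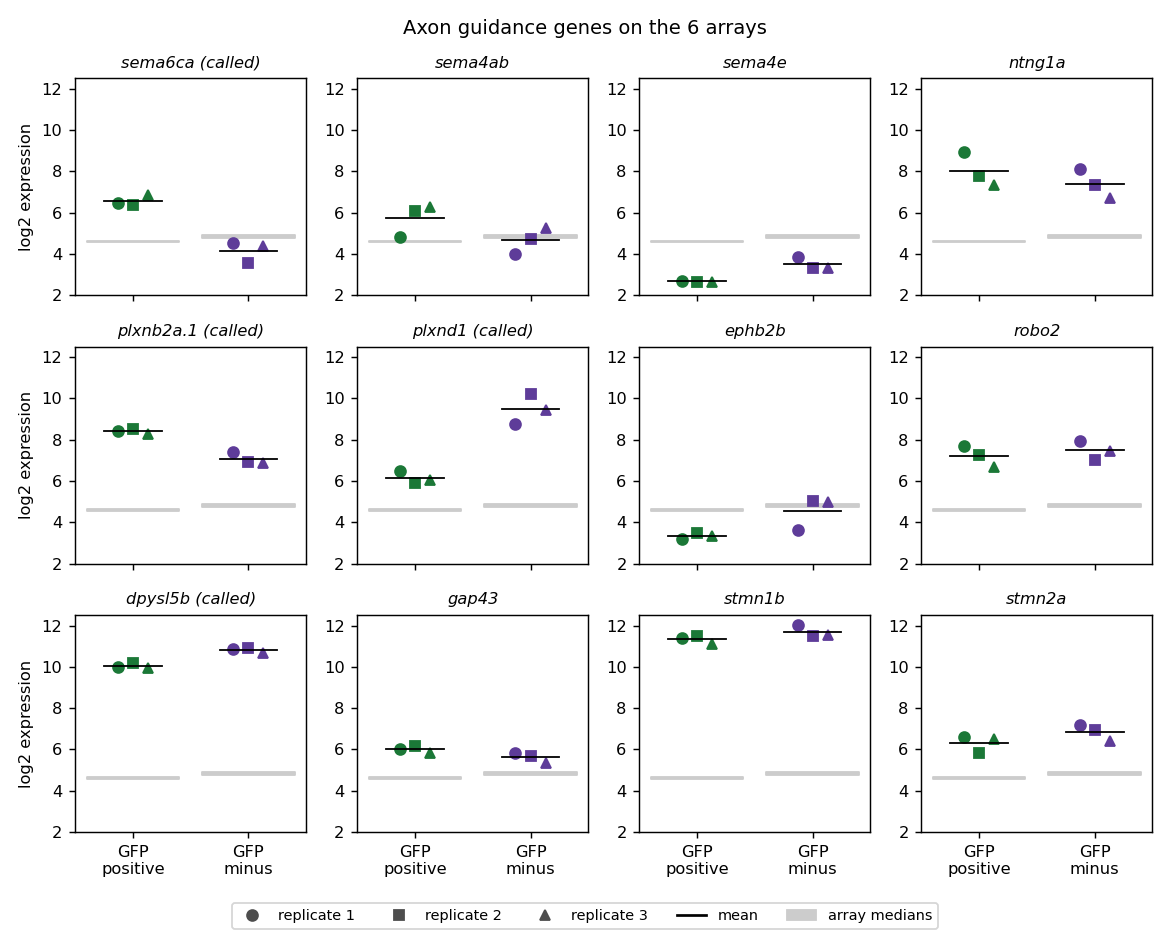
Log2 expression of 12 axon guidance genes on each of the 3 GFP-positive and 3 GFP-minus arrays, each gene by its probe set of highest mean level. Symbols give the replicate number, black lines the group means and grey bands the array medians; the groups are separate for *sema6ca*, *sema4e*, *plxnb2a.1*, *plxnd1*, *ephb2b* and *dpysl5b*.

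Plexins, the signalling receptors of semaphorins, held the sharpest contrast among the receptors. The gene *plxnd1* encodes plexin D1, known in zebrafish and mice from endothelial cells and in mice also from developing T cells. It had log2 levels of 6.48, 5.91 and 6.04 in GFP-positive arrays, against 8.76, 10.21 and 9.45 in GFP-minus arrays. Every GFP-minus array was higher than every GFP-positive array, and all 6 were above the array median. The difference was -3.33 with a standard error of 0.42 (limma adjusted p = 0.0215), and its 95% confidence interval ran between -4.46 and -2.20. GFP-positive cells were thus 10.1-fold lower. Without GFP-minus replicate 1 or 2 the call held (limma adjusted p = 0.0235 and 0.0460). It was lost without GFP-minus replicate 3 (0.0784) and without GFP-positive replicate 1, 2 or 3 (0.0613, 0.0931 and 0.0991), with differences of -3.68 to -2.96 throughout. Beside it, the leukocyte and erythrocyte markers were lower as given above. Of 3 measured vessel markers none was called, with summed linear levels of 40.5 to 45.3 in GFP-positive and 57.8 to 206 in GFP-minus arrays. The endothelial receptor gene *kdrl* was at 4.37, 4.25 and 4.53 in GFP-positive and at 5.02, 5.44 and 7.48 in GFP-minus arrays, while *tie1* stayed at 2.29 to 2.38. Of 2 measured T cell markers, the T cell receptor gene *trac* was lower, at 2.38, 2.17 and 2.37 in GFP-positive, against 5.13, 5.44 and 6.90 in GFP-minus arrays (limma adjusted p = 0.0305), and *cd28* stayed between 3.21 and 3.47. The part of leukocytes, erythrocytes and vessels in the difference of *plxnd1* was not tested.

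The gene *plxnb2a.1* encodes a class B plexin, the class that binds class 4 semaphorins in mammals, and it was higher in GFP-positive cells. Its log2 levels were 8.44, 8.53 and 8.27 in GFP-positive arrays and 7.41, 6.94 and 6.86 in GFP-minus arrays. The GFP-positive arrays lay close together and above every GFP-minus array. The difference was 1.34 with a standard error of 0.18 (limma adjusted p = 0.0232), a 2.54-fold higher level, and the 95% confidence interval ran between 0.88 and 1.81. The call held without GFP-minus replicate 1 (limma adjusted p = 0.0131) and was lost without GFP-minus replicate 2 or 3 (0.0891 and 0.0699) and without GFP-positive replicate 1, 2 or 3 (0.0778, 0.0972 and 0.0825). The cone, rod and Müller glia marker values given above stand beside *plxnb2a.1* too, and the part of these cell types was not tested. Its near neighbour *plxnb2a.3*, with 1 protein-coding gene between them in the RefSeq annotation of GRCz12tu, lay at background, between 2.18 and 2.22. Neuropilins were dim, *nrp1a* standing at 4.02, 4.01 and 4.21 in GFP-positive, against 4.26, 5.34 and 4.06 in GFP-minus arrays, with GFP-minus replicate 2 alone above its array median. The gene *nrp2b* did not exceed 2.29.

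Eph receptors, the receptor tyrosine kinases of ephrins, had no call among 10 probe sets for 9 genes. The gene *ephb2b* came nearest, with log2 levels of 3.21, 3.50 and 3.33 in GFP-positive arrays and 3.61, 5.05 and 4.97 in GFP-minus arrays. The groups did not overlap, though GFP-minus replicate 1 lay close to the GFP-positive arrays. The difference of -1.19 (95% confidence interval -2.38 to -0.01) did not pass over all probe sets (limma adjusted p = 0.234). Without GFP-minus replicate 1 it was -1.66 and passed (limma adjusted p = 0.0129). It did not pass without any other single array (limma adjusted p of 0.404 to 0.491). Clear signal was found for *epha4b*, at 6.55, 6.17 and 5.72 in GFP-positive arrays and 7.12, 5.44 and 6.16 in GFP-minus arrays, with a difference of -0.09 (standard error 0.51). The gene *ephb3a* lay at 5.88, 4.92 and 4.87 in GFP-positive arrays, against 5.09, 4.68 and 4.64 in GFP-minus arrays, and overlapped. The genes *epha2a*, *epha4l* and *ephb4b* were flat near 2.17, both *epha4a* probe sets stayed at or under 3.37, and *epha6* and *ephb4a* did not exceed 2.98.

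All 3 Robo receptors were above the array median on every array and none differed between the populations beyond the spread of its replicates. The gene *robo2*, mutated in the zebrafish pathfinding mutant astray, had log2 levels of 7.68, 7.26 and 6.69 in GFP-positive arrays and 7.94, 7.03 and 7.47 in GFP-minus arrays. Its difference was -0.27, with a 95% confidence interval of -1.24 to 0.71. The gene *robo1*, which lies next to *robo2* in the RefSeq annotation, was at 6.50, 6.37 and 5.37 in GFP-positive and at 6.39, 5.42 and 6.07 in GFP-minus arrays (difference 0.12, interval -1.03 to 1.27). The gene *robo3*, which acts in midline crossing, was at 6.63, 6.11 and 6.01 in GFP-positive and at 7.18, 5.66 and 5.52 in GFP-minus arrays (difference 0.13, interval -1.28 to 1.54). Each of these intervals reached past 1 log2 unit in at least 1 direction. Transcripts of Robo receptors were thus measured in both populations, while those of the Slits were not detectable with these probe sets. Amacrine cell markers were measured in both populations too, with summed linear levels of 8893 to 10176 in GFP-positive and 13088 to 13930 in GFP-minus arrays. A level in GFP-positive arrays is therefore not tied to cones.

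The cytoplasmic partners were clear of background, all 8 probe sets of the *dpysl* genes, *gap43* and the stathmins being above the array median on every array. The gene *dpysl5b* encodes a collapsin response mediator protein, a cytosolic tubulin-binding phosphoprotein of neurons. It had log2 levels of 9.99, 10.21 and 9.95 in GFP-positive arrays, against 10.85, 10.92 and 10.68 in GFP-minus arrays. The spread within each population was small, with an SD of 0.14 in GFP-positive and 0.13 in GFP-minus arrays (n = 3 arrays each), and the groups were separate. The difference was -0.77 with a standard error of 0.10 (limma adjusted p = 0.0243), so that GFP-positive cells were 1.70-fold lower, and the 95% confidence interval ran between -1.04 and -0.49. Without GFP-minus replicate 3 the call held (limma adjusted p = 0.0488). It was lost without GFP-minus replicate 1 or 2 (0.0743 and 0.0854) and without GFP-positive replicate 1, 2 or 3 (0.0796, 0.0510 and 0.0991). Amacrine cell markers lay in the same direction, with 3 of 11 called lower and summed linear levels of 8893 to 10176 in GFP-positive and 13088 to 13930 in GFP-minus arrays. Of 9 retinal ganglion cell markers, 1 was called higher and 2 lower, and their sum was 2918 to 4393 in GFP-positive and 1351 to 2114 in GFP-minus arrays. That order rested on the neurofilament gene *inaa*: without it the sum was 697 to 936 in GFP-positive and 1028 to 2010.3 in GFP-minus arrays. The 2 called lower were *thy1* and *eomesa*, with log2 differences of -3.86 and -1.27. On GFP-minus arrays *thy1* ranged from 8.26 to 8.64, while its highest GFP-positive level was 5.13. How far the order without *inaa* rested on *thy1* was not tested. Every *eomesa* value lay below its array median. Of 10 leukocyte genes, 8 were called lower as well, and their part in *thy1* and *eomesa* was not tested. Of the other ganglion cell markers, *isl2a* had an uncalled difference of 0.89, and *atoh7* and *pou4f2* stayed at 2.22 to 2.69 on all arrays. The part of these cell types in the difference of *dpysl5b* was not tested.

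Its relatives were not called. The gene *dpysl5a* had log2 levels of 8.61, 8.97 and 8.69 in GFP-positive arrays and 9.39, 8.91 and 9.21 in GFP-minus arrays. The direction was that of *dpysl5b*, with 1 overlapping array and a difference of -0.41 (95% confidence interval -0.86 to 0.03, limma adjusted p = 0.271). The gene *dpysl3* was at 9.80, 8.81 and 8.67 in GFP-positive and at 9.28, 8.61 and 8.41 in GFP-minus arrays, with replicate 1 highest in each population. Gap43, a membrane phosphoprotein of growing and regenerating axons, was measured at 6.04, 6.19 and 5.82 in GFP-positive arrays and at 5.84, 5.70 and 5.35 in GFP-minus arrays. These groups overlapped by 1 array, and the difference of 0.38 was not called (95% confidence interval -0.07 to 0.83, limma adjusted p = 0.306). The adhesion genes *l1cama* and *l1camb*, which act with guidance receptors on axons, were at or near 2.17 and did not exceed 2.37.

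Stathmins bind tubulin dimers and destabilise microtubules, and none of their 4 probe sets was called. The brighter *stmn1b* probe set had log2 levels of 11.39, 11.51 and 11.13 in GFP-positive arrays, against 12.01, 11.49 and 11.56 in GFP-minus arrays. Its difference was -0.34 (standard error 0.19), and that of the dimmer *stmn1b* probe set was 0.06 (standard error 0.37), so that the direction of the gene is not settled. The neuronal stathmin gene *stmn2a* was at 6.62, 5.84 and 6.49 in GFP-positive and at 7.19, 6.94 and 6.40 in GFP-minus arrays, a difference of -0.53 (95% confidence interval -1.37 to 0.31, limma adjusted p = 0.443). The gene *stmn4* was between 9.35 and 9.85 in GFP-positive and between 9.16 and 9.57 in GFP-minus arrays (difference 0.11). The unrelated *unc50* had a difference of -0.08 (standard error 0.52).

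**Figure D3:**
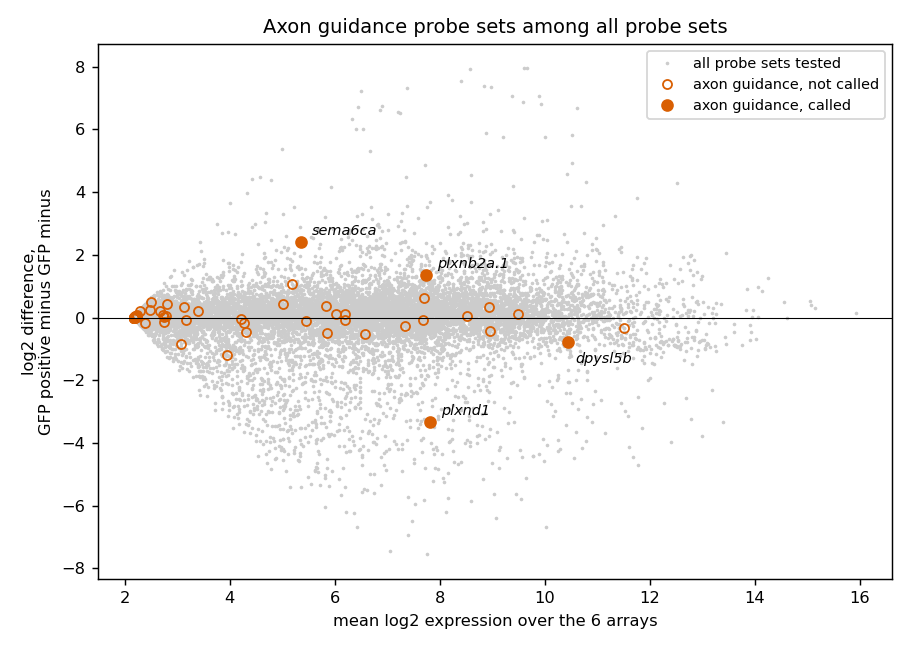
Log2 difference, GFP positive minus GFP minus, against the mean log2 expression over the 6 arrays, for all 15502 probe sets (grey) and the 58 axon guidance probe sets (orange, filled where called). Guidance probe sets gather at low levels near a difference of 0 (34 were below the array median on all arrays), and the 4 called ones are named.

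Zebrafish keep duplicate copies of many guidance genes, and 8 member pairs were measured in both copies. Whether the copies of a pair differed in their response was tested on the per-array difference between them, with limma over all 662 such pairs on the array, of which 121 (18.3%) were called. None of the 8 guidance pairs was called. In 7 of these pairs, *efna5a* with *efna5b* among them, at least 1 copy lay near background on all arrays, so that the test says nothing of how those copies respond. For *dpysl5a* and *dpysl5b* the gap was 0.36 (95% confidence interval -0.13 to 0.84, limma adjusted p = 0.277), so that the call of *dpysl5b* alone does not show that the copies respond differently.

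The 4 calls had the same direction under every alternative tried, and whether they passed the threshold varied with the alternative, as the plot of these genes under each setting shows. Quantile normalization, the filter on dim probe sets and another prior of limma kept all 4 calls. Quantile normalization called 6.90% of the guidance and 9.30% of all probe sets, and the other prior 6.90% and 7.13%. The filter called 19.0% of the guidance and 22.8% of all probe sets that it kept. The gene *sema6ca* passed that filter only through its 3 GFP-positive arrays, so its call there is no separate support. Median centring, which raised a typical difference by 0.23, also kept all 4, and added 21 called higher, 20 of them probe sets above the array median on fewer than 3 arrays and 13 of them flat. With it, 43.1% of the guidance probe sets and 46.8% of all probe sets were called. Scaling to the hybridization controls, which moved a typical difference by -0.74, left 3 of the 4 called. There *plxnb2a.1* had a difference of 0.61 (limma adjusted p = 0.0825) and 12 probe sets were lower, among them *dpysl5a*, *efna5a*, *robo2*, *sema4e*, *stmn1b* and *stmn2a*. That scaling called 22.4% of the guidance probe sets and 22.2% of all probe sets. A block by replicate number kept 1 of the 4 calls, that of *dpysl5b*. It called 1.72% of the guidance probe sets and 2.90% of all probe sets. Without any single GFP-positive array none of the 58 was called, when 2.04% to 4.97% of all probe sets were.

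**Figure D4:**
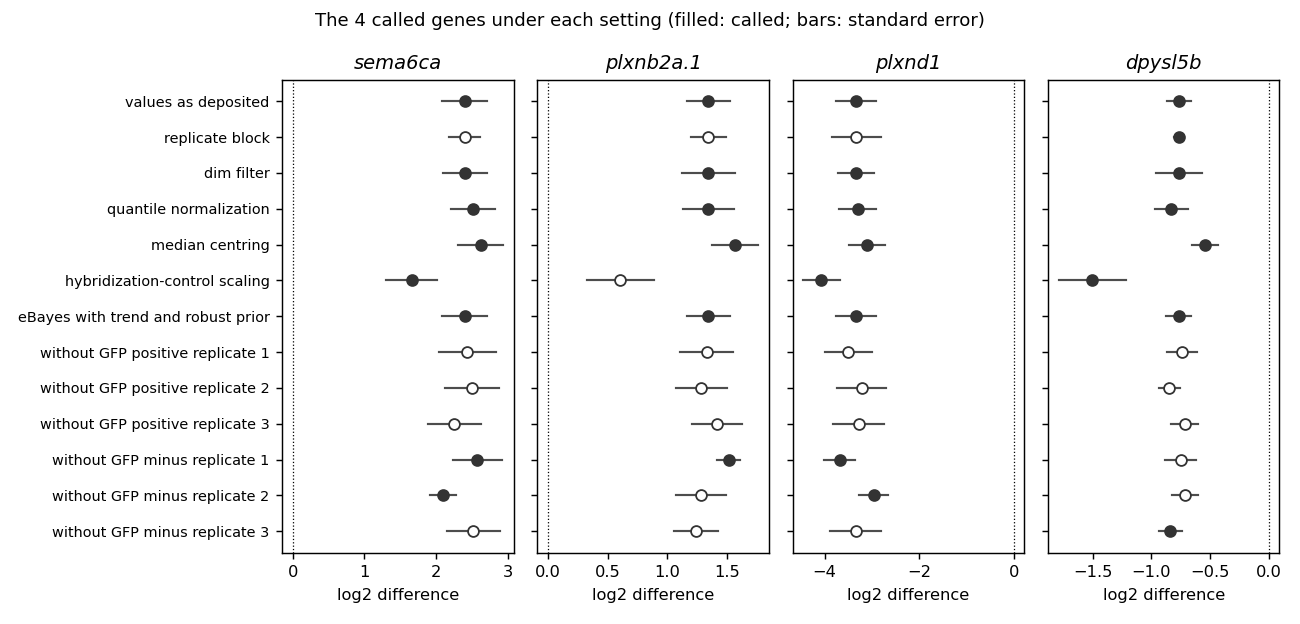
Log2 difference of *sema6ca*, *plxnb2a.1*, *plxnd1* and *dpysl5b* (GFP positive minus GFP minus) with its standard error, from the values as deposited and under each of 12 alternatives; filled points passed the adjusted p of 0.05. No point crosses 0, and all 4 points are open in each of the rows that leave out a GFP-positive array.

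Further genes of the pathway were read from a separate list of 184 ligands, receptors, adhesion partners and cytoplasmic effectors, of which 90 were measured. Of these, 1 was higher (1.11%, against 2.99% of all probe sets) and 7 were lower (7.78%, against 4.69%) in GFP-positive cells, and the median difference was -0.01. The list and all probe sets differ in level, and each listed gene stood by its brightest probe set. Of the list, 74.4% lay above the array median on at least 3 arrays, against 51.7% of all probe sets. Without GFP-minus replicate 2 or 3 or GFP-positive replicate 2, 2 were lower, and 3 without GFP-positive replicate 3. Over all probe sets the 727 lower calls became 336, 398, 241 and 214 there, in that order. The 1 higher became 0 without GFP-minus replicate 1 or 2 or GFP-positive replicate 2. There the 463 higher calls over all probe sets became 257, 126 and 143. The chemokine receptor gene *cxcr4b*, which guides axons and migrating cells and is also abundant in leukocytes, had the most negative difference of the list. It was at 6.50, 4.98 and 4.90 in GFP-positive arrays, against 10.25, 11.03 and 10.84 in GFP-minus arrays, a difference of -5.25 (standard error 0.54, limma adjusted p = 0.0138). Its duplicate *cxcr4a* was also lower, by -1.87, with GFP-positive values at 2.34 to 2.60, near background. The cofilin gene *cfl1l* had a difference of -3.49 (limma adjusted p = 0.00336), the adaptor gene *nck1a* one of -3.42 (limma adjusted p = 0.0138) and the GTPase gene *rras*, whose mammalian product is a target of plexin GAP activity, one of -2.10 (limma adjusted p = 0.0153). The kinase gene *rock2a* and the phosphatase gene *ptpn11a* (difference -0.89, limma adjusted p = 0.0436) completed the lower calls. The duplicate *ptpn11b* went the other way without a call, with separate groups and a difference of 1.31 (limma adjusted p = 0.103). Leukocyte, erythrocyte and some amacrine cell markers were lower beside all 7 lower calls, and the part of these cell types was not tested. The 1 higher gene was *ppp3r1b*, a regulatory subunit of calcineurin, at 10.45, 10.61 and 10.74 in GFP-positive, against 9.77, 9.88 and 9.72 in GFP-minus arrays (difference 0.81, limma adjusted p = 0.0152). The exchange factor gene *farp2*, whose mouse product binds class A plexins, was at 10.62, 10.78 and 10.94 in GFP-positive and at 7.60, 7.27 and 9.30 in GFP-minus arrays. Its difference of 2.73 missed the threshold (limma adjusted p = 0.0774), with GFP-minus replicate 3 nearest to the GFP-positive arrays.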

How the data were processed

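Total RNA of the sorted cells was labelled by the Affymetrix two-cycle protocol and hybridized to 6 arrays, 1 per replicate. The authors deposited log2 expression values named as GCRMA values in the submitters' processing notes, with no version or settings stated there; no aligner or genome build applies, and arrays have no read depth, so that the 3 arrays per population limit the precision. Gene symbols came from the platform annotation (10795 probe sets with 1 symbol, 135 with several and left unnamed, 4572 with none), and all 50 genes matched the RefSeq table by gene identifier. The table held 15617 probe sets, and the 115 controls of the manufacturer were not tested. GFP-positive and GFP-minus arrays were compared with limma 3.58.1 (lmFit, eBayes; 0.519 prior degrees of freedom) in R 4.3.3, two-sided, and the procedure was tested on simulated data. A gene with several probe sets was represented, in lists and pairs, by the one with the highest mean. Named genes were all called probe sets, the brightest and the most different one of each family, the duplicate pairs, and the largest calls of the other list; others were added after their values were seen. The genes and lists were chosen with earlier results of these data known. The alternatives comprised a block by replicate number, a dim filter (above the array median on at least 3 arrays, 8012 probe sets), quantile normalization, median centring, scaling to 18 hybridization control probe sets, limma with trend and robust prior, other thresholds and leaving out each array. Figures were drawn with matplotlib 3.10.9.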

Additional observations from a re-analysis of the deposited data

How the results depend on the processing

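Of 450 values of 39 guidance probe sets under 12 alternatives, 364 kept their direction and their side of the threshold, 22 lost and 19 gained a call and 45 changed sign, all of them probe sets not called from the values as deposited. The 2 higher guidance probe sets became 0 with the replicate number as a block, 23 with median centring, 1 with hybridization-control scaling and 0 at an adjusted p under 0.01, and ranged from 0 to 2 without single arrays. The 2 lower ones became 1 with the block, 12 with hybridization-control scaling, 0 at an adjusted p under 0.01 and 1 with a 2-fold minimum, and ranged from 0 to 3 without single arrays. The 1 higher gene of the further list became 2 with the block, 7 with the dim filter, 3 with quantile normalization and 25 with median centring (0 to 1 without single arrays), and its 7 lower genes became 2 with the block and 27 with hybridization-control scaling (2 to 6 without single arrays). With the block, *dpysl5b* stayed called (limma adjusted p = 0.0451), and *sema6ca* (0.0638), *plxnb2a.1* (0.0759) and *plxnd1* (0.105) were not. Same-numbered arrays deviated from their group means together at correlations of 0.55, 0.06 and 0.27, the first being the highest of any combination. GFP-positive replicate 2 went best with GFP-minus replicate 3 (0.36). With 3 arrays per group these correlations cannot decide whether the numbers mark pairs. The main fit used no pairs because the labels state none. Over all probe sets, 463 higher and 727 lower calls became 194 and 256 with the block. With the dim filter, which tested 8012 probe sets, they were 835 and 991, and with quantile normalization 679 and 763. They became 6151 and 1102 with median centring and 195 and 3251 with hybridization-control scaling. The higher share of calls, 38.9% as deposited, was 84.8% with median centring and 5.66% with hybridization-control scaling. Causes were not tested.

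Sign changes under hybridization-control scaling were -0.70 for *ntn1a*, -0.29 for *ntn1b*, -0.11 for *ntng1a*, -0.64 for *sema3ab*, -0.24 for *sema3e*, -0.71 for *slit3*, -0.32 for *ephb3a*, -0.49 for *ephb4a*, -0.62 for *robo1*, -0.61 for *robo3*, -0.67 for *l1cama*, -0.41 for *dpysl3*, -0.35 for *gap43*, -0.68 for the dimmer *stmn1b* probe set and -0.62 for *stmn4*. Median centring gave 0.057 for *efnb2b*, 0.12 for *efnb3b*, 0.10 for *slit2*, 0.14 for *epha4a*, 0.13 for *epha4b*, 0.22 for *ephb4b* and 0.14 for *unc50*. Quantile normalization gave 0.039 for *efnb2b*, 0.069 for *efnb3b*, 0.024 for *epha4b* and -0.0057 for the dimmer *stmn1b* probe set. Without single arrays the difference ranged from -0.35 to 0.16 for *efnb2b*, -0.45 to 0.48 for *efnb3b*, -0.49 to 0.35 for *epha4b*, -0.15 to 0.48 for *robo1*, -0.17 to 0.66 for *robo3*, -0.029 to 0.58 for *dpysl3*, -0.29 to 0.24 for the dimmer *stmn1b* probe set, -0.039 to 0.21 for *stmn4* and -0.54 to 0.22 for *unc50*.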

Other observations

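The Nogo system restrains axon growth in myelinated tissue of mammals. Of 10 genes grouped here around it, 3 were measured and none was called from the values as deposited. The Nogo gene *rtn4a* was at 12.34, 12.77 and 12.67 in GFP-positive and at 11.25, 11.75 and 11.77 in GFP-minus arrays (difference 1.00, limma adjusted p = 0.0606). The co-receptor gene *lingo1b* was at 9.64, 10.33 and 10.36 in GFP-positive and at 8.71, 8.43 and 9.04 in GFP-minus arrays (difference 1.38, limma adjusted p = 0.0608). The matrix gene *tnr* had a difference of 0.63 (limma adjusted p = 0.120), and of -0.11 when arrays were scaled to the hybridization controls, where *rtn4a* was at 0.27 and *lingo1b* at 0.64, all uncalled. With median centring all 3 were called, the highest limma adjusted p being 0.0340. That setting called 46.8% of all probe sets, and the dim filter 22.8% of those it kept. Quantile normalization called 9.30% of all and the block by replicate number 2.90%. The dim filter and quantile normalization called *rtn4a* (0.0219 and 0.0117) and *lingo1b* (0.0123 and 0.0471), the block by replicate number called *rtn4a* alone (0.0418), and no call was made without any single array. All GFP-positive arrays lay above all GFP-minus arrays for each of the 3, as they did for 13.9% of all probe sets. The grouping was made after the values were seen.

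Among the 21 guidance probe sets above the array median on at least 3 arrays, replicate 1 was the highest array of both populations for 11 (52.4%), against 1520 of 8012 probe sets (19.0%) that passed the same filter. They were probe sets of *efna5a*, *efnb3b*, *ntng1a*, *epha4b*, *ephb3a*, *robo1*, *robo2*, *robo3*, *dpysl3*, *stmn1b* and *stmn2a*. The labels do not say what replicate 1 of each population shared. The pattern was noticed in these values and not tested.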
